A study of Homo sapiens with 6 samples.

Results

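The genes described here are 44 components of the autophagy machinery, its cargo receptors and 3 closely tied factors, measured in Y79 retinoblastoma cells with and without arginine deprivation. They were chosen by name from a fixed list, drawn up with earlier results of these data known. All 44 were found among the 63140 gene IDs of the count table. Y79, a long-established line from a human retinoblastoma, is labelled WT and was grown in RPMI medium with fetal bovine serum and antibiotics. The 3 control libraries came from cells kept in complete medium, and the 3 rhArg libraries from cells given recombinant human arginase (rhArg, 2 U/mL) for 72 h, an enzyme that breaks down the arginine of the medium. The data come from a single line in culture, at 1 dose and 1 time. The methods state in general that n is the number of experiments, but neither they nor the labels say of the RNA-seq libraries that each was a separate culture, and the p-values describe a spread between libraries that may be technical.

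Macroautophagy encloses cytoplasm in a double membrane, the autophagosome, and delivers it to the lysosome, where proteins are broken down and their amino acids released. It starts when the ULK kinase complex is released from inhibition by mTORC1, a kinase that senses amino acids. A class III PI3-kinase complex around BECN1 and PIK3C3 then makes the lipid PI3P on the growing membrane, WIPI-family proteins (among them WDR45 and WDR45B) bind this lipid, and ATG2 and ATG9 proteins supply further lipid. A conjugation system like that of ubiquitin attaches ATG8 proteins (the LC3 and GABARAP families) to the membrane, and cargo receptors such as SQSTM1 hold ubiquitinated cargo and ATG8 at the same time. BNIP3 and BNIP3L sit on mitochondria and bind ATG8 without ubiquitin. Much of this control acts on proteins, by phosphorylation and lipid attachment, which mRNA counts do not measure.

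Library totals lay between 12580622 and 13747351 counts. Replicates of a group differed by more than sampling noise, the chi-square divided by its degrees of freedom being 9.77 to 18.2 among controls and 3.91 to 5.14 among rhArg libraries. All 9 markers of the retinoblastoma and photoreceptor lineage were detected, with summed counts of 90193 to 102017 in controls and 48421 to 49009 under rhArg, a sum in which MYCN, an oncogene expressed in this line, took 45838 to 57362 counts in controls and 12448 to 14049 under rhArg. The 5 immune markers summed to 4 to 8 counts in controls and 5 to 6 under rhArg, and the 5 fibroblast markers to 57 to 67 and 45. The 4 endothelial markers summed to 3 to 6 counts in controls and 10 to 19 under rhArg. The 5 markers of retinal pigment epithelium and glia summed to 30 to 50 counts in controls and 127 to 165 under rhArg, of which BEST1 took 107 to 131. COL3A1, LUM, CD3E, CDH5, KDR and AQP4 were at 0 in every library, and RPE65 had at most 4 counts. Of the 9 lineage markers 6 fell with the treatment, CRX rose (log2 fold change 0.62, adjusted p = 2.269e-05) and RCVRN and THRB did not pass (adjusted p = 0.111 and 0.473). VWF, an endothelial marker, and BEST1 rose, and the part of these markers in the results was not tested. In bulk RNA a change in which cells are present and a change in RNA per cell cannot be told apart.

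Promoter sequence is shown for 3 members that rose over 2-fold, the receptors SQSTM1 and CALCOCO2 and the ATG8-binding protein TP53INP2. SQSTM1 had the largest log2 fold change of the 44 genes, and the other two held matches to transcription factor motifs. Each line gives the 250 bases before the RefSeq start in GRCh38.p14, 5′ to 3′ on the plus strand, with motif matches in capitals. The windows are chr5:179806143-179806392 for SQSTM1, chr20:34704094-34704343 for TP53INP2 and chr17:48830785-48831034 for CALCOCO2. They contain 0, 5 and 17 bases of the gene's own exons as the counting annotation draws them.
SQSTM1: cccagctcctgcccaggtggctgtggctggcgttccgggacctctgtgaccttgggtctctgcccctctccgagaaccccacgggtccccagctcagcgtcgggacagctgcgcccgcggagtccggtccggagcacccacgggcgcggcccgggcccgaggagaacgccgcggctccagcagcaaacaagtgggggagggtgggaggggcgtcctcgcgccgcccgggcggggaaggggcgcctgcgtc
TP53INP2: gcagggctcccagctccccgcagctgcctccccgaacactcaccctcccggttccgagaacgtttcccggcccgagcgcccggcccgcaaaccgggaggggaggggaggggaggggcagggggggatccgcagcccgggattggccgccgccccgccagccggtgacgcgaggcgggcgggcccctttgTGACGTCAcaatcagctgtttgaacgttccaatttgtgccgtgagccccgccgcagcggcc
CALCOCO2: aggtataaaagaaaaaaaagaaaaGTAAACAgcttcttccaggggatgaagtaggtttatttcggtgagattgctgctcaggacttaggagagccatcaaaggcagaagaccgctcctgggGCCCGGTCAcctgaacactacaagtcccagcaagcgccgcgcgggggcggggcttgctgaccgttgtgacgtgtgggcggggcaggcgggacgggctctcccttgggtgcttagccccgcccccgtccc
The capitals in TP53INP2 mark TGACGTCA, the site of CREB and ATF proteins, at positions -61 to -54 from the start, a motif picked after the promoters had been seen. In CALCOCO2 they mark the FOXO element GTAAACA, at positions -226 to -220, and on the minus strand the core of the antioxidant response element, TGACNNNGC, at positions -129 to -121. None of the motifs searched was found in the SQSTM1 window.

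A promoter was present in the table for 38 of the 44 genes, among 27305 promoters of the same length, and both strands were searched. The CLEAR core TCACGTGA, to which the lysosomal regulators TFEB and TFE3 bind, was in 0 of the 38 windows and in 0.89% of all promoters. The E-box CACGTG, which lies inside the CLEAR core, was in 3 windows (ATG14, ATG3 and BNIP3) and in 6.49% of all promoters. The C/EBP-ATF response element TGATGNAAN was in 0 windows and in 3.18% of all promoters. The FOXO element was in 1 window, that of CALCOCO2, and in 2.98% of all promoters. The antioxidant response core was in 4 windows (ATG101, ATG9B, CALCOCO2 and MAP1LC3B) and in 11% of all promoters, and TGACGTCA in 2 windows (GABARAPL1 and TP53INP2) and in 1.77%. The MAP1LC3B window lies wholly within exons that the counting annotation assigns to that gene, 250 of 250 bases. These matches describe the letters in the windows and were not tested for binding.

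Of the 44 genes, 43 passed the filter on low counts. With rhArg, 16 rose (37.2% of those tested), 6 fell (14%) and 21 did not pass an adjusted p of 0.05 (edgeR quasi-likelihood test, Benjamini-Hochberg over 15221 genes). Over all genes tested, 30.7% rose, 30.9% fell and 61.7% changed in either direction, against 51.2% of the autophagy genes. The median log2 fold change was 0.12 over the 43 genes and -0.01 over all genes tested. A rise over 2-fold was found for 7 genes (16.3%), beside 12.4% of all genes, and a fall over 2-fold for 0 genes, beside 11% of all genes. Normalized counts did not overlap between the groups for 16 genes that were higher and 5 that were lower under rhArg, where the shares over all genes were 33.4% and 33.1%. The share that rose was thus near the background, and the share that fell was below it. Those shares are a description of the list and carry no test.

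**Figure D1:**
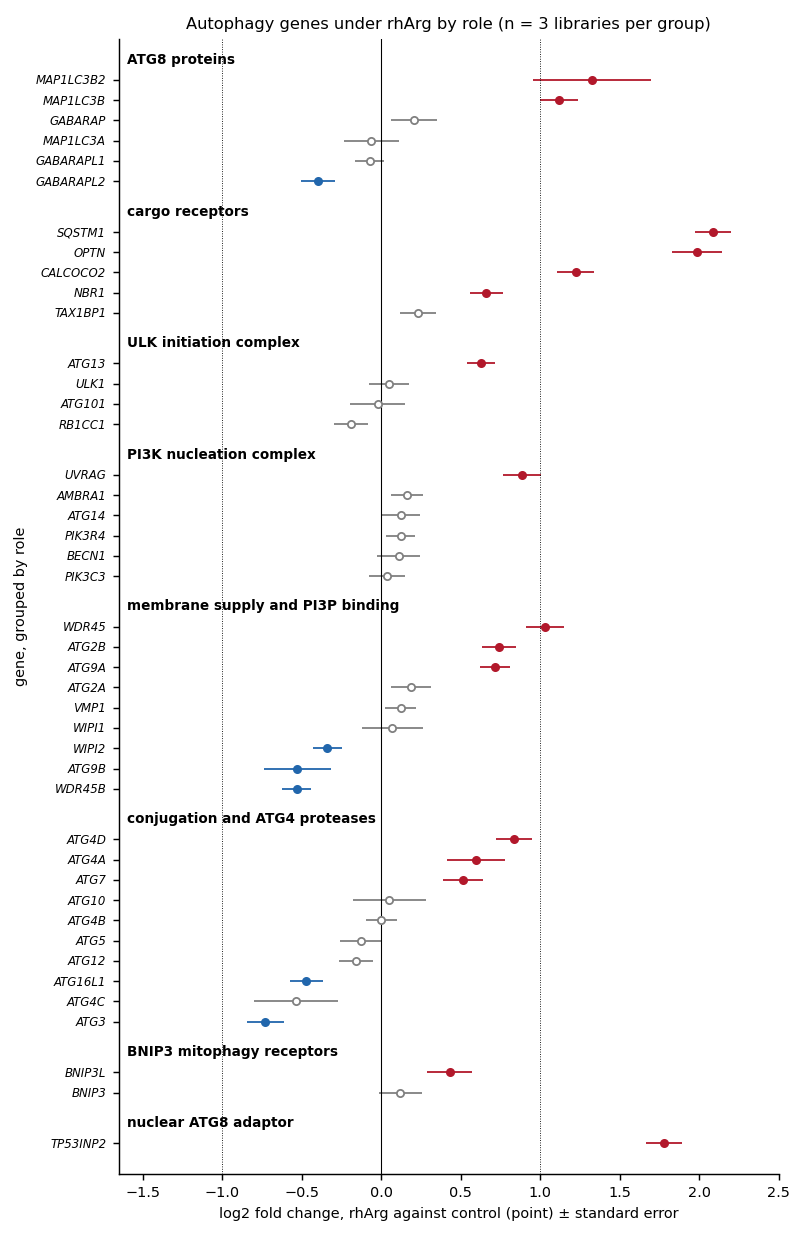
Log2 fold change (horizontal axis, rhArg against control, point ± standard error, 3 libraries per group) of the 43 genes tested, listed by role on the vertical axis. Red points rose and blue points fell at an adjusted p under 0.05, open points did not pass, and dotted lines mark a 2-fold change. The 7 genes to the right of the dotted line include 3 of the 5 cargo receptors, and no gene lies left of the opposite line.

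The rises over 2-fold lay mainly outside the groups taken here as core machinery. The ULK, PI3-kinase, membrane and conjugation groups together held 30 genes, of which 29 were tested, 8 rose, 5 fell and 16 did not pass, with 1 rise over 2-fold and a median log2 fold change of 0.07. The other 14 genes (ATG8 proteins, receptors, BNIP3 proteins and TP53INP2) held 8 that rose, 1 that fell and 6 rises over 2-fold. Their median was 0.55, but that of the ATG8 proteins alone was 0.07 and that of the receptors 1.22. The shares that fell were 17.2% of the core and 7.14% of the others, beside 30.9% of all genes. The shares that rose were 27.6% of the core and 57.1% of the others, beside 30.7% of all genes. For rises over 2-fold they were 3.45% and 42.9%, beside 12.4%. When the change was tested against 2-fold itself (glmTreat), 3 genes passed, SQSTM1 (adjusted p = 1.711e-07), TP53INP2 (8.329e-06) and OPTN (2.134e-05). CALCOCO2 (0.0753), MAP1LC3B (0.336), MAP1LC3B2 (0.387) and WDR45 (0.842) did not.

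Among the groups of more than 1 gene, the cargo receptors had the highest median log2 fold change. Of the 5 receptors, 4 rose (80%, beside 30.7% of all genes), 0 fell and TAX1BP1 did not pass. Their median log2 fold change was 1.22. SQSTM1 (ENSG00000161011, chr5:179806398-179838078, plus strand), the scaffold that links ubiquitinated cargo to LC3 and is itself degraded by autophagy, had normalized counts of 551, 759 and 661 in controls and 2849, 2707 and 2817 under rhArg. Every rhArg library was above every control, and the rhArg libraries lay close together. The log2 fold change was 2.09 ± 0.11 (SE), a 4.25-fold rise (adjusted p = 4.362e-10). Of its exon bases, 22.4% also belong to other genes, mainly the opposite-strand gene MRNIP, and counting ignored strand.

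OPTN (optineurin, ENSG00000123240, chr10:13099449-13138308, plus strand), a receptor for ubiquitinated mitochondria and bacteria, had 85.4, 74.3 and 64.5 normalized counts in controls and 266, 301 and 321 under rhArg. It was the least abundant receptor in both conditions, and the groups were far apart. Its log2 fold change was 1.99 ± 0.16 (3.96-fold, adjusted p = 2.637e-08). CALCOCO2 (ENSG00000136436, chr17:48831018-48866522, plus strand), a receptor known for bacteria and damaged mitochondria, had 1044, 742 and 796 normalized counts in controls and 1943, 1988 and 2095 under rhArg. Control 1 stood above the other controls but well below the rhArg libraries, and the log2 fold change was 1.22 ± 0.12 (2.33-fold, adjusted p = 2.502e-07). NBR1, a receptor of protein aggregates and peroxisomes, rose less, from 567, 492 and 461 normalized counts to 808, 777 and 819 (log2 fold change 0.66 ± 0.10, adjusted p = 4.376e-05).

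TAX1BP1, which like CALCOCO2 has a SKICH domain and acts on aggregates and bacteria, gave 1822, 1372 and 1466 normalized counts in controls and 1798, 1687 and 1985 under rhArg. Here control 1 lay inside the rhArg range. The log2 fold change was 0.23 ± 0.11 and did not pass (adjusted p = 0.0840). Without control 1 it was 0.35 (adjusted p = 0.00439), so that library decides the call.

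**Figure D2:**
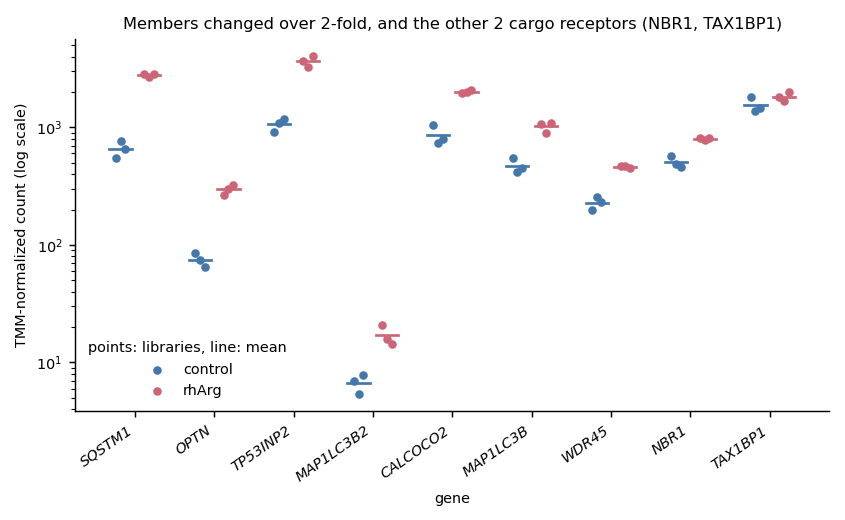
TMM-normalized counts (vertical axis, log scale) in each library for the 7 genes that rose over 2-fold and for NBR1 and TAX1BP1 (horizontal axis). Points are libraries (blue control, red rhArg) and lines are group means of 3. The groups are apart for every gene shown except TAX1BP1, whose highest control (1822) lies above 2 of the rhArg libraries.

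Because counts scale with transcript length, levels of different genes were compared as TMM-scaled counts per kilobase of exon and per megaread of library (RPKM). On this scale the summed level of the 5 receptors went from 33.0 ± 3.06 (SD, n = 3) in controls to 73.2 ± 2.66 under rhArg, 2.22 times the control sum, with no overlap between groups (exact two-sided permutation test over libraries, p = 0.1, the smallest that 3 against 3 can give). TAX1BP1 was the most abundant receptor in controls (12.9 ± 1.97), followed by CALCOCO2 (7.86 ± 1.47) and SQSTM1 (6.62 ± 1.05), and the last pair overlapped. Under rhArg SQSTM1 came first (28.1 ± 0.749), then CALCOCO2 (18.4 ± 0.716) and TAX1BP1 (15.1 ± 1.25), with no overlap between these neighbours. NBR1 and OPTN were the lowest of the 5 in both conditions. The receptor makeup thus changed in order as well as in sum. The lengths used include exon bases shared with other genes, 22.4% for SQSTM1 and 0 for CALCOCO2. The control order of SQSTM1 and CALCOCO2 is therefore uncertain.

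The ATG8 family changed in makeup, whereas its summed level overlapped between the groups. Of the 6 genes 2 rose (33.3%), 1 fell (16.7%) and 3 did not pass, beside 30.7% and 30.9% of all genes. MAP1LC3B (LC3B, ENSG00000140941, chr16:87383953-87404779, plus strand), the ATG8 protein most used as an autophagosome marker, had 547, 418 and 453 normalized counts in controls and 1076, 900 and 1099 under rhArg. All rhArg libraries were well above all controls, and the log2 fold change was 1.12 ± 0.12 (2.17-fold, adjusted p = 7.445e-07). MAP1LC3B2 (ENSG00000258102, chr12:116548105-116576606, plus strand), a near copy of MAP1LC3B, had 7, 5 and 8 raw counts in controls and 21, 16 and 15 under rhArg (log2 fold change 1.33 ± 0.37, adjusted p = 0.00544). Of its stretches of 100 bases, 12.3% are identical in MAP1LC3B, so at these low counts its reads could in part come from the more abundant gene, and its value is uncertain.

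GABARAPL2, of the GABARAP branch that acts late in autophagosome closure and fusion, fell. Its normalized counts were 798, 680 and 706 in controls and 525, 525 and 608 under rhArg, without overlap (log2 fold change -0.40 ± 0.11, adjusted p = 0.00390). GABARAPL1 gave 1111, 1025 and 1118 in controls and 1049, 987 and 1060 under rhArg (log2 fold change -0.07 ± 0.09, adjusted p = 0.511). The ranges of these last groups overlapped. GABARAP gave 186, 157 and 191 in controls and 179, 215 and 224 under rhArg (0.21 ± 0.14, adjusted p = 0.225), and 48.2% of its exon bases lie in other annotated genes. MAP1LC3A (LC3A) gave 101, 129 and 112 in controls and 115, 91.8 and 121 under rhArg (-0.06 ± 0.17, adjusted p = 0.770). For neither of the last pair did the libraries separate by treatment.

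Per kilobase, the 6 ATG8 genes summed to 60.5 ± 2.94 in controls and 64.5 ± 4.32 under rhArg, a ratio of 1.07 with overlapping groups (exact permutation p = 0.3). Within that sum the share of MAP1LC3B was 13.0%, 10.95% and 11.3% in controls and 25.2%, 22.5% and 24.0% under rhArg, a gain of 12.2 percentage points. The share of GABARAPL2 went from 30.3% ± 1.28 to 21.6% ± 0.914 (SD, n = 3) and that of GABARAPL1 from 33.6% ± 0.855 to 30.0% ± 1.04. GABARAPL1 and GABARAPL2 together made up most of the family in controls, and under rhArg MAP1LC3B came ahead of GABARAPL2 in every library. MAP1LC3B2 held 0.437% ± 0.0698 and 1.05% ± 0.228. Each of these 4 shares separated the groups (exact two-sided permutation p = 0.1, the smallest possible, 0.15 adjusted over 6 genes). The shares of MAP1LC3A (12.5% and 11.1%) and GABARAP (11.4% and 12.4%) overlapped (exact p = 0.4 for each). When only exon bases outside other genes were taken as the length, a choice made after seeing the data, the gain of MAP1LC3B was 10.7 points and GABARAP held 19.4% and 20.9%.

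TP53INP2 (ENSG00000078804, chr20:34704339-34713439, plus strand), a protein that shuttles between nucleus and cytoplasm and binds ATG8 proteins, had 914, 1098 and 1189 normalized counts in controls and 3685, 3262 and 4022 under rhArg. The lowest rhArg library exceeded the highest control by a wide margin. Its log2 fold change was 1.78 ± 0.11 (3.43-fold, adjusted p = 2.836e-09). Per kilobase it stood at rank 4 of the 44 genes in controls (19.4 ± 2.55) and at rank 1 under rhArg (66.4 ± 6.91). Its rhArg level was above that of SQSTM1, at rank 2, in every library. In controls WDR45B was at rank 1 (28.3 ± 1.02) and ULK1 at rank 2 (23.3 ± 5.12), and the libraries of these neighbours overlapped.

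Of the 4 initiation genes tested ATG13 rose (25%), 0 fell and 3 did not pass, beside 30.7% and 30.9% of all genes. ATG13, the regulatory subunit that carries the nutrient signal to the ULK kinase, had 1427, 1354 and 1401 normalized counts in controls and 2104, 2153 and 2206 under rhArg. Replicates were tight and the groups well apart (log2 fold change 0.63 ± 0.09, 1.55-fold, adjusted p = 1.298e-05). ULK1, the kinase itself, had 1847, 2874 and 2312 in controls and 2532, 2342 and 2396 under rhArg, so the controls spanned the rhArg values on both sides (0.05 ± 0.13, adjusted p = 0.758). RB1CC1 (FIP200), the large scaffold of the complex, had a log2 fold change of -0.19 ± 0.11 (adjusted p = 0.139), and -0.30 without control 2 (adjusted p = 0.0129). ATG101, which stabilizes ATG13, had -0.02 ± 0.17 (adjusted p = 0.915). ULK2, the second kinase, was not tested, with 4, 0 and 0 counts in controls and 0, 0 and 1 under rhArg. At this depth ULK2 was barely detected in Y79 cells in either condition.

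Of the 6 genes of the nucleation complex 1 rose (16.7%), 0 fell and 5 did not pass, beside 30.7% and 30.9% of all genes. UVRAG, which defines the BECN1 complex of later, endosomal steps, had 182, 183 and 191 normalized counts in controls and 332, 332 and 363 under rhArg (log2 fold change 0.89 ± 0.12, 1.85-fold, adjusted p = 1.003e-05). The groups did not overlap and the replicates of each were close. The other 5 genes were the lipid kinase PIK3C3 (0.04 ± 0.11), its regulatory subunit PIK3R4 (0.12 ± 0.09), the scaffold BECN1 (0.11 ± 0.13), ATG14 (0.12 ± 0.12), which marks the BECN1 complex of autophagosome formation, and the regulator AMBRA1 (0.16 ± 0.10). Their log2 fold changes were small and positive, their groups overlapped, and their adjusted p lay between 0.178 (AMBRA1) and 0.801 (PIK3C3). ATG14 and BECN1 share 20.8% and 17.1% of their exon bases with other genes.

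The membrane group was split, with 3 genes higher (33.3%), 3 lower (33.3%) and 3 that did not pass, beside 30.7% and 30.9% of all genes. WDR45 (WIPI4, ENSG00000196998, chrX:49074433-49101170, minus strand), a PI3P effector that works with ATG2, had 198, 255 and 231 normalized counts in controls and 471, 468 and 455 under rhArg (log2 fold change 1.03 ± 0.12, 2.04-fold, adjusted p = 2.035e-06). It was just past 2-fold, and without control 1 its log2 fold change was 0.92. WDR45B (WIPI3), its closest relative, moved in the opposite direction, from 1375, 1297 and 1290 to 951, 899 and 890 (-0.53 ± 0.09, adjusted p = 9.846e-05). Neither gene's groups overlapped. WIPI2, which recruits ATG16L1 to PI3P, also fell (-0.34 ± 0.09, adjusted p = 0.00365), while WIPI1 had 0.07 ± 0.19 (adjusted p = 0.770).

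Of the lipid carriers, ATG2B rose (log2 fold change 0.74 ± 0.11, adjusted p = 2.526e-05) and ATG2A, the other bridge-like lipid transfer protein, had 0.19 ± 0.13 (adjusted p = 0.202) and 0.31 without control 2 (adjusted p = 0.0212). ATG9A, the lipid scramblase of the vesicles that seed autophagosomes, rose from 560, 582 and 576 normalized counts to 904, 976 and 944 (0.72 ± 0.09, adjusted p = 6.560e-06). A readthrough gene on the same strand covers 38.8% of the ATG9A exon bases. ATG9B, its less abundant paralog, fell (-0.53 ± 0.21, adjusted p = 0.0392), but its groups overlapped and the call was lost with DESeq2 (adjusted p = 0.0680) and without control 2, control 3, rhArg 1 or rhArg 3 (adjusted p between 0.0808 and 0.141). VMP1, a scramblase of the endoplasmic reticulum, had 0.12 ± 0.10 (adjusted p = 0.282).

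The conjugation system was also mixed, with 3 genes higher (30%) and 2 lower (20%) among 10, beside 30.7% and 30.9% of all genes. ATG4D, one of the 4 proteases that process ATG8 and release it from membranes, had 366, 461 and 377 normalized counts in controls and 698, 758 and 689 under rhArg, without overlap (log2 fold change 0.83 ± 0.11, 1.78-fold, adjusted p = 8.325e-06). ATG4A rose by 0.60 ± 0.18 (adjusted p = 0.00979), a call lost without control 3 (adjusted p = 0.0517). ATG4B, per kilobase the most abundant of these proteases in controls, had 0.00 ± 0.10 (adjusted p = 0.991), and ATG4C, at low counts, -0.54 ± 0.27 (adjusted p = 0.0926) and -0.80 without control 2 (adjusted p = 0.00842).

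ATG7 and ATG3, the E1-like and E2-like enzymes that act in sequence on ATG8, moved in opposite directions. ATG7 had 206, 239 and 216 normalized counts in controls and 337, 285 and 322 under rhArg (log2 fold change 0.52 ± 0.13, adjusted p = 0.00207), and 18.1% of its exon bases lie in other genes, mainly the opposite-strand VGLL4. ATG3 had 605, 494 and 472 in controls and 309, 318 and 321 under rhArg (-0.73 ± 0.12, adjusted p = 5.265e-05), the largest fall among the 43 genes tested. Neither gene's groups overlapped. ATG16L1, the subunit that places the conjugation machinery on the membrane, fell by 0.47 on the log2 scale (SE 0.11, adjusted p = 0.00120). Its partners ATG5 (-0.13 ± 0.13, adjusted p = 0.412) and ATG12 (-0.16 ± 0.11, adjusted p = 0.203) and the E2-like enzyme ATG10 (0.05 ± 0.23, adjusted p = 0.857) did not pass. Without control 2, ATG12 gave -0.25 (adjusted p = 0.0335).

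The pair of BNIP3 mitophagy receptors differed in call. BNIP3L (NIX), known from the clearing of mitochondria in maturing red cells, had 1342, 812 and 1005 normalized counts in controls and 1365, 1381 and 1510 under rhArg. Control 1 nearly reached the lowest rhArg library. The log2 fold change was 0.43 ± 0.14 (adjusted p = 0.0137), and the call was lost without control 2, control 3 or rhArg 3 (adjusted p between 0.0545 and 0.0705). BNIP3 had 569, 381 and 403 in controls and 481, 493 and 498 under rhArg (0.12 ± 0.13, adjusted p = 0.456), with control 1 above all rhArg libraries, and 0.31 without control 1 (adjusted p = 0.0164).

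Several autophagy proteins exist as pairs of paralogs with related functions, and a ratio between paralogs within a library does not depend on how libraries are scaled. Of 11 pairs, 10 had enough counts to compare, and in 8 the ratios did not overlap between the groups. Single genes did not overlap in 33.4% (rhArg above) and 33.1% (rhArg below) of those tested, so non-overlap was common in these data, and no such share was computed for ratios. For each of those 8 the exact two-sided permutation p was 0.1, the smallest possible, and 0.125 after adjustment over 10 pairs. WDR45 to WDR45B, in counts per kilobase, gave the largest change in ratio, with 0.109, 0.149 and 0.135 in controls and 0.374, 0.393 and 0.386 under rhArg (a difference of 1.57 on the log2 scale). ATG4D to ATG4C went from 4.89, 14.3 and 7.54 to 22.8, 21.7 and 16.0, a difference of 1.30 between widely spread controls. ATG4C had low counts, and 14.7% of the ATG4D exon bases also belong to the opposite-strand gene KRI1, so the levels of this ratio are uncertain. ATG9A to ATG9B went from 12.8, 8.43 and 9.87 to 25.6, 22.1 and 24.2, a difference of 1.23. In the last pair the counts of ATG9B were low throughout.

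MAP1LC3A to MAP1LC3B went the other way, from 0.809, 1.35 and 1.08 to 0.466, 0.446 and 0.479 (a log2 difference of -1.19). In controls the 2 LC3 genes were about equal per kilobase, and under rhArg MAP1LC3B was ahead in every library. The log2 differences of the remaining pairs without overlap were 0.59 for ATG4A to ATG4B, 0.33 for GABARAPL1 to GABARAPL2, -0.32 for BNIP3 to BNIP3L and -0.54 for ATG2A to ATG2B. The ATG2A to ATG2B ratios were 1.498, 2.92 and 2.16 in controls and 1.43, 1.489 and 1.45 under rhArg, so control 1 and rhArg 2 almost met. Without control 2 that difference was -0.31. WIPI1 to WIPI2 (0.44, exact p = 0.3) and GABARAPL1 to GABARAP (-0.28, exact p = 0.2) overlapped. ULK1 to ULK2 was left out because ULK2 had almost no counts.

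**Figure D3:**
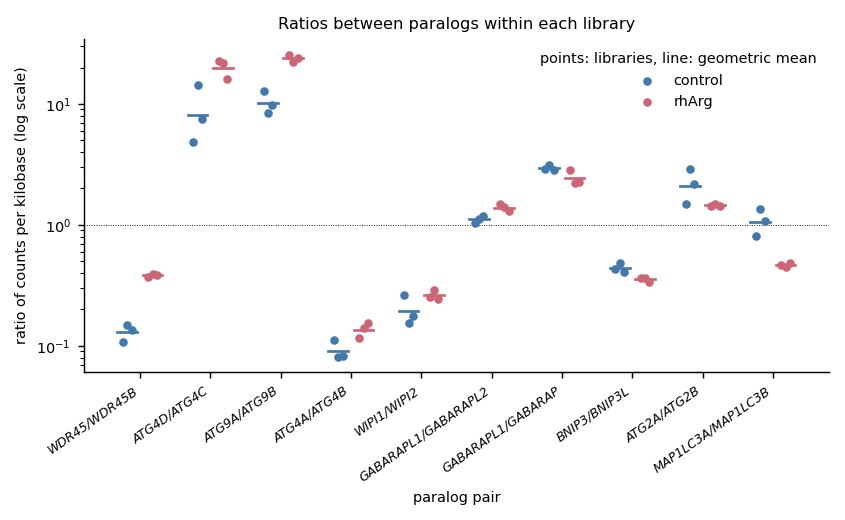
Ratio of counts per kilobase between paralogs (vertical axis, log scale) within each library for the 10 pairs compared (horizontal axis). Points are libraries (blue control, red rhArg), short lines are geometric means of 3, and the dotted line marks equal levels. WDR45/WDR45B, ATG4D/ATG4C and ATG9A/ATG9B are higher under rhArg and MAP1LC3A/MAP1LC3B lower, and the control points of ATG4D/ATG4C are the most spread.

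Summed per kilobase, the levels of the 4 core groups changed little beside those of the receptors. The ULK genes summed to 48.9 ± 3.59 in controls and 56.8 ± 0.920 under rhArg (ratio 1.16), the PI3-kinase genes to 39.8 ± 0.781 and 44.8 ± 0.731 (1.13), the conjugation genes to 61.5 ± 2.52 and 67.8 ± 1.84 (1.10) and the membrane genes to 75.9 ± 1.16 and 78.3 ± 0.712 (1.03). In each of these 4 sums the rhArg libraries lay above the controls (exact permutation p = 0.1, the smallest possible). For the membrane genes the margin was narrow, 77.87 in the lowest rhArg library and 76.81 in the highest control. The sums were not computed under another scaling of the libraries. The BNIP3 genes summed to 27.7 ± 6.78 and 35.1 ± 1.58 (1.27), with overlap (exact p = 0.3). A sum is led by its most abundant genes and does not give the balance of a complex.

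Further autophagy genes outside the 44 were taken from 4 lists with 41 genes, of which 36 were tested. In these lists 20 rose (55.6%, beside 30.7% of all genes), 5 fell (13.9%, beside 30.9%) and 6 rose over 2-fold (16.7%, beside 12.4%). The median log2 fold change was 0.36. The lists were chosen with earlier results of these data known, so these shares are a description and carry no test. Of 8 nucleation and membrane regulators 5 rose (62.5%) and 1 fell (12.5%), beside 30.7% and 30.9% of all genes. ZFYVE1 (DFCP1), a PI3P-binding protein that marks the sites of autophagosome birth, rose by 1.73 ± 0.12 on the log2 scale (adjusted p = 6.594e-09), and SNX18, a membrane-bending protein, by 1.12 ± 0.12 (adjusted p = 6.392e-07). SH3GLB1, which binds UVRAG, rose by 0.49 ± 0.10 (adjusted p = 0.000547) and EI24, of the endoplasmic reticulum, fell by 0.79 (SE 0.10, adjusted p = 8.45e-06).

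Of the 6 tested receptors for autophagy of the endoplasmic reticulum 3 rose (50%, beside 30.7% of all genes) and 0 fell. They were CCPG1 (1.31 ± 0.20, adjusted p = 3.71e-05), RTN3 (1.01 ± 0.09, adjusted p = 1.98e-07) and CALCOCO1 (0.82 ± 0.10, adjusted p = 2.208e-06). CCPG1 had only 73, 37 and 59 raw counts in controls. Other genes share 40% of its exon bases, mainly DNAAF4-CCPG1 on the same strand (38.7%). Of the 10 tested genes of other selective autophagy 6 rose (60%) and 3 fell (30%), beside 30.7% and 30.9% of all genes. The ubiquitin-binding receptor TOLLIP rose by 1.35 ± 0.14 (adjusted p = 5.1e-07), PINK1, the kinase that marks damaged mitochondria, by 1.12 ± 0.13 (adjusted p = 1.548e-06) and the aggregate scaffold WDFY3 by 0.66 ± 0.11 (adjusted p = 8.145e-05). Those that fell were NUFIP1, tied to ribosome turnover (-0.72 ± 0.12, adjusted p = 6.938e-05), the mitochondrial prohibitin PHB2 (-0.43 ± 0.09, adjusted p = 0.00107) and TBK1, the kinase that phosphorylates OPTN and SQSTM1 (-0.37 ± 0.12, adjusted p = 0.0156). For PINK1, 41.7% of the exon bases lie in other genes, mainly the opposite-strand PINK1-AS.

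Of the 12 tested genes of autophagosome fusion with the lysosome 6 rose (50%) and 1 fell (8.33%), beside 30.7% and 30.9% of all genes. The HOPS tethering subunits VPS11 (0.82 ± 0.10, adjusted p = 3.732e-06) and VPS33A (0.58 ± 0.13, adjusted p = 0.00110) and the SNARE protein SNAP29 (0.80 ± 0.10, adjusted p = 3.163e-06) had the largest rises of this list. Of the other HOPS subunits VPS18 also rose (0.56 ± 0.11, adjusted p = 0.000337). VPS16 (-0.08, adjusted p = 0.589), VPS39 (-0.0007, adjusted p = 0.996) and VPS41 (-0.0003, adjusted p = 0.999) did not pass. TECPR1, a tether on lysosomes, fell (-0.51 ± 0.12, adjusted p = 0.00144). Each of the related genes named as rising or falling had groups without overlap, but all except VPS18 were picked as the largest changes that passed. Of the 36 tested related genes, 21 lay higher and 6 lower without overlap, beside 33.4% and 33.1% of all genes.

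**Figure D4:**
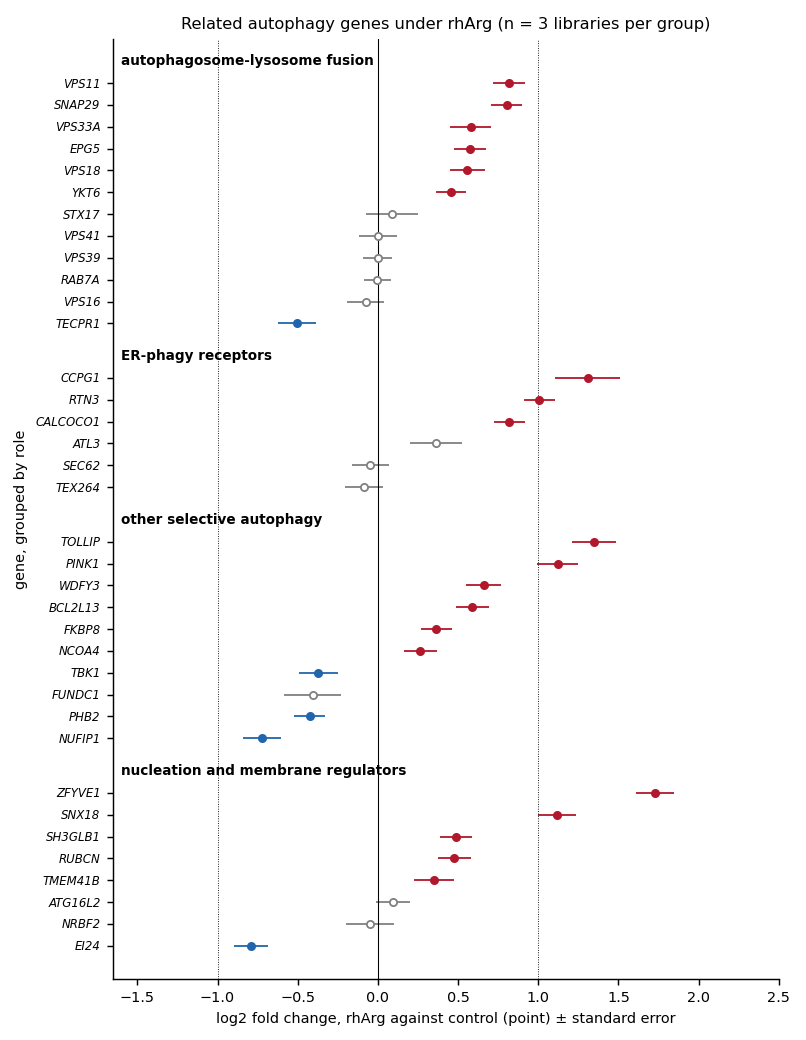
Log2 fold change (horizontal axis, rhArg against control, point ± standard error, 3 libraries per group) of the 36 tested genes of the 4 related lists, by list on the vertical axis. Red points rose, blue points fell and open points did not pass an adjusted p of 0.05. ZFYVE1 lies farthest to the right (1.73) and EI24 farthest to the left (-0.79).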

How the data were processed

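mRNA libraries of Y79 cells (3 controls, 3 rhArg) were grouped by the treatment entry of their labels, since the treatment protocol text is the same for all samples. The authors used SOAPnuke to filter reads and HISAT2 to align them to hg38 (versions not given in the sources used here) and counted read pairs per gene with featureCounts 2.0.1 on Ensembl release 112, without strand. They deposited raw counts, which are not normalized. The number of per-sample columns not used was 0.

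The counts were fitted by edgeR 4.0.16 in R 4.3.3 (TMM, filterByExpr, then glmQLFit and glmQLFTest, treatment as the only term), with Benjamini-Hochberg adjustment over 15221 genes and a threshold of 0.05. The common dispersion was 0.011, and TMM factors were 0.975 to 1.02. A normalized count is the count scaled to the mean effective library size. SE is the size of the log2 fold change over the square root of F. Of the gene IDs, 62541 matched a symbol. Reads in exons of several genes were by default counted for none. Counts per kilobase used the deposited gene length. Library ratios and shares were tested by exact permutation with scipy 1.17.1.

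The genes and lists were chosen with earlier results of these data known. Values in every library are given for genes changed over 2-fold, the largest change of each role group and the ATG8 genes, plus others of interest chosen after their values were seen. From each related list up to 3 rises and 3 falls were named, plus the other HOPS subunits. Promoters are from RefSeq. Alternatives were DESeq2 1.42.0, library totals, upper-quartile or RLE factors, no filter, a stricter filter (a mean count of 20 and 1 CPM in all libraries of either group), leaving out each library, the replicate number as a block and glmTreat. The scripts were tested on simulated data.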

Additional observations from a re-analysis of the deposited data

How the results depend on the processing

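Of the 22 autophagy genes that passed, 18 passed in all 13 settings other than glmTreat, 0 changed direction, ATG4A, ATG9B and BNIP3L lost the call in at least 1, and MAP1LC3B2 was not tested under the stricter filter, which left 15 that rose and 6 over 2-fold. With a library left out, 14 to 18 genes rose, 5 to 8 fell and 6 to 7 rose over 2-fold, and 18 to 20 related genes rose and 4 to 5 fell. Over all genes tested in those fits, 27.2% (without rhArg 1) to 30.2% (without control 2) rose. With glmTreat the number of autophagy genes over 2-fold was 3, since that test asks for a change beyond the threshold. For the other moves the cause was not tested. With libraries left out, the median log2 fold change ran from 1.11 to 1.37 for receptors, -0.055 to 0.103 for ULK genes, 0.095 to 0.177 for PI3-kinase genes, 0.049 to 0.186 for membrane genes and -0.174 to -0.033 for conjugation genes. Upper-quartile factors gave medians of 0.038 (ULK) and 0.148 (membrane), no filter -0.039 (ULK) and 0.107 (membrane), and the stricter filter -0.061 (ATG8, which loses MAP1LC3B2). With a library left out, the log2 differences of the 10 paralog ratios kept their direction, and that of ATG2A to ATG2B ran from -0.787 to -0.306. The share gain of MAP1LC3B was 10.7 points per unshared kilobase. Genes that had not passed changed sign near 0 when a library was left out, with ranges of -0.123 to 0.240 for ATG10, -0.092 to 0.002 for ATG101, -0.075 to 0.070 for ATG4B, -0.026 to 0.183 for BECN1, -0.004 to 0.310 for BNIP3, -0.152 to 0.051 for MAP1LC3A, -0.071 to 0.158 for PIK3C3, -0.109 to 0.203 for ULK1 and -0.072 to 0.315 for WIPI1. ATG101 was 0.002 with upper-quartile factors and ATG4B -0.014 with no filter, where ATG4C passed (-0.55, adjusted p = 0.0424). With the replicate number as a block, 16 genes rose, 6 fell and 7 rose over 2-fold, as without it. Same-numbered libraries deviated with correlations of -0.08, 0.06 and 0.00, so no effect shared by a replicate number was seen. Such correlations cannot tell whether same-numbered libraries were set up together. Depth limited ULK2, and low counts limited MAP1LC3B2, ATG4C, ATG9B and ATG10.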

Other observations

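Among the 3 controls, control 1 was the highest for 22 of the 43 tested autophagy genes and control 2 the lowest for 19. Among the rhArg libraries, rhArg 3 was the highest for 21 and rhArg 2 the lowest for 19. The median deviation of a library from its group over these genes was between -0.04 and 0.06 on the log2 scale. Control 1 was the highest control for TAX1BP1, CALCOCO2, NBR1, BNIP3 and BNIP3L and the lowest for SQSTM1, ULK1, ATG2A and WDR45, so it did not stand to 1 side for all of these genes.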
